A study of Mus musculus with 14 samples.

Results

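The 10 genes of the oocyte F-box/WD cluster, *Fbxw13*, *Fbxw14*, *Fbxw15*, *Fbxw16*, *Fbxw18*, *Fbxw19*, *Fbxw20*, *Fbxw22*, *Fbxw24* and *Fbxw28*, were followed in RNA-seq counts of mouse oocytes. They were taken by name, 10 of the 20337 genes with a symbol in the count files, and the RefSeq transcript with the highest mean count stood for each gene. Oocytes were full-grown and germinal vesicle (GV)-intact, the stage before meiosis resumes. The females were 4 to 6 weeks old and had received eCG (equine chorionic gonadotropin, 5 IU) 48 h before collection. Each of the 14 libraries was made from 20 oocytes freed of cumulus cells and pooled from 3 mice (3 or 4 by the methods of the study), so a library is a pool and not an animal.

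The libraries form 5 genotypes. *Ago2* fl/fl (3 libraries) is the floxed control without Cre, *Ago2* ADH (3) is *Ago2* fl/ADH; Cre/+, in which the remaining allele encodes a catalytically inactive protein, and *Ago2* null (2) is *Ago2* fl/fl; Cre/+. *Dicer* WT (3) and *Dicer* KO (3) form a second series, in which *Dicer* is deleted only in oocytes. Cre in the *Ago2* crosses was driven by the *Zp3* promoter, which is active in growing oocytes. The allele behind *Dicer* KO is not detailed in the sources used here. By the design text the background was mostly C57BL6, from crosses of 3 transgenic lines. AGO2 is the Argonaute that cleaves RNA paired with a small RNA, and DICER cuts the precursors of endogenous siRNAs and of microRNAs.

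F-box proteins are the substrate receptors of SCF ubiquitin ligases. The F-box binds SKP1, which docks the receptor on the scaffold CUL1, while WD repeats, where present, bind the protein to be ubiquitinated. The mouse cluster on chromosome 9 is a tandem array of related genes known for transcription in oocytes, and the substrates of its products are largely undefined.

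The annotation (GRCm38, called mm10 in the study) places 15 *Fbxw* genes in the array, all on the minus strand. The 10 members span chr9:109179227-109702700, a distance of 523 kb. Each member has 10 exons and a predicted protein of 453 to 469 residues. Of the other 5 genes, *Fbxw21* and *Fbxw26* were in the count files. *Fbxw23*, *Fbxw25* and *Fbxw27* were not found there under these symbols, so their levels were not analysed and only sequences were used. Transcripts of the members were alike in sequence. Over aligned bases, identity ranged from 82.0% to 99.2% among the 45 pairs, with a median of 85.5%.

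Promoters are shown because the members differ in their changes while their upstream sequences are close copies. RefSeq promoter sequence (GRCm38.p6) was found for 8 of the 10 members, not for *Fbxw13* and *Fbxw22*. The 250 bases before the transcript start, read 5′ to 3′ on the minus strand, were 84.7% to 98.4% identical over aligned bases in the 28 pairs. Capitals mark CAGCTG, a form of the E-box CANNTG, a sequence that basic helix-loop-helix factors such as the oocyte factor FIGLA can bind. The 5 shown are *Fbxw16* (chr9:109449141-109449390) and *Fbxw20* (chr9:109234755-109235004), which fell in all mutants, *Fbxw18* (chr9:109702701-109702950), which separated the *Ago2* and *Dicer* mutants, *Fbxw24* (chr9:109626060-109626309), the most abundant member, and *Fbxw28* (chr9:109339660-109339909), which rose in *Dicer* KO.
Fbxw16: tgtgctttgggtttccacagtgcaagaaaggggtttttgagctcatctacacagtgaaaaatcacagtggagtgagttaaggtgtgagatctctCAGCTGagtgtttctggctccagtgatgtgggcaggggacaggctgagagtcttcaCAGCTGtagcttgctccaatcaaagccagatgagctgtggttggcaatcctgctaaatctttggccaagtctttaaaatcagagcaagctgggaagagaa
Fbxw20: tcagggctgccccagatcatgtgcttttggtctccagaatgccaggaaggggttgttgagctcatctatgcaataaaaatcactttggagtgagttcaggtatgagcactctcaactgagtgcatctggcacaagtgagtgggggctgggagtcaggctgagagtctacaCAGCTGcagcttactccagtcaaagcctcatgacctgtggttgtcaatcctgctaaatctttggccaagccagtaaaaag
Fbxw18: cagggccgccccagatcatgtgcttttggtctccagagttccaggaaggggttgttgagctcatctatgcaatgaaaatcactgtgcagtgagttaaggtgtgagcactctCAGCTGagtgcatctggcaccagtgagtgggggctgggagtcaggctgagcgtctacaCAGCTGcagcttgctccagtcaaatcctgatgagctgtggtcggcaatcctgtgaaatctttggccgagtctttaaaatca
Fbxw24: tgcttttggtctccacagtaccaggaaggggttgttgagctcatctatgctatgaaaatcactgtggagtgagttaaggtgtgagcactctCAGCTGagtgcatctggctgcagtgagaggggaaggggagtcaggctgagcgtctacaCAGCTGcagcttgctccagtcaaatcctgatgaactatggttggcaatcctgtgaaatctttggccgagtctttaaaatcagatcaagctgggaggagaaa
Fbxw28: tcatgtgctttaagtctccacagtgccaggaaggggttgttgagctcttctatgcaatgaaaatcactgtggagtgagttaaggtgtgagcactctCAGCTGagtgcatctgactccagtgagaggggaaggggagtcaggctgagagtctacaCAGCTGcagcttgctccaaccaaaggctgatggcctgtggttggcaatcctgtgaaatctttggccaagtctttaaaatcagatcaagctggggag

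CAGCTG stood in all 8 member promoters, against 12.8% of the 27025 promoters searched over the same length. It also stood in 3 of the 4 promoters found for other genes of the cluster. It reads the same on both strands and is contained in CANNTG, which stood in 8 of 8 member promoters and in 66.0% of all. In 7 of the 8 there were 2 copies of CAGCTG, 56 to 58 bases apart, while *Fbxw20* had 1. The 3 promoters of other cluster genes with CAGCTG held it in pairs too. A search of both strands found TATAAA in 0 of 8 members (13.0% of all promoters), TAATTA in 0 of 8 (4.90%) and CCAAT in 1 of 8, *Fbxw16* (34.5%). The longest run of bases common to the 8 was AAATCTTTGGCC, which began 71 to 26 bases before the start. It was found in 11 of all promoters (0.0407%), among them 2 of the other genes of the cluster. Since the promoters are close in sequence, the matches are not independent of each other, and they are a description that marks no binding site.

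**Figure D1:**
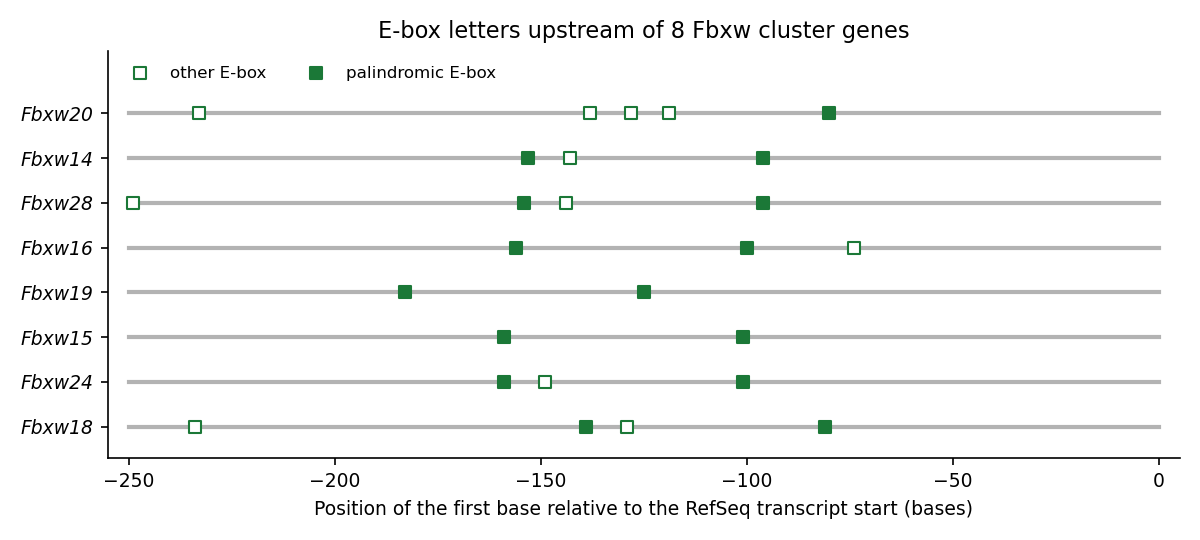
E-box letters in the 250 bases before the RefSeq transcript start (position 0, in bases) of 8 members. Filled squares are the palindromic form and open squares other E-boxes; the filled pair lies 56 to 58 bases apart in 7 genes, and *Fbxw20* has 1 filled square.

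The libraries held 29380403 to 58285057 reads counted on transcripts, and a member had 2493 to 91802 of them. Oocyte markers were abundant. The 12 of the list summed to 12713 to 19561 normalized CPM (counted reads scaled to a common library total) in every library. The 12 granulosa and cumulus markers summed to 57.4 to 103 CPM, most of it from *Cyp19a1*, with group means of 21.7 to 54.6, and *Nr5a2*, with 28.5 to 38.5. The means of *Kitl* were 4.31 to 5.34 and those of *Cyp11a1* 0.164 to 4.56, and the other 8 had at most 1.44 in any group, with *Foxl2* at 0 in *Ago2* fl/fl and *Dicer* WT. The sum was lower in the mutants, at 78.1 to 85.0 in *Ago2* fl/fl, 67.2 to 71.9 in *Ago2* ADH, 57.4 to 61.9 in *Ago2* null, 96.3 to 103 in *Dicer* WT and 80.9 to 83.7 in *Dicer* KO. Single markers did not all follow the sum. In *Ago2* ADH 1 of the 9 tested was called higher and 2 lower, with a median log2 fold change of 0.20, and the mean of *Cyp11a1* was 1.42 in *Ago2* fl/fl and 4.56 in *Ago2* ADH. The counts were 0 and 1 of 9 in *Ago2* null (median −0.40) and 0 and 2 of 7 in *Dicer* KO (median −0.19). The 7 markers of other ovarian cells summed to 33.8 to 45.2 CPM, nearly all of it *Pecam1*, and the mean of *Ptprc* was at most 0.00862 CPM in any group. Since only oocytes were sequenced, these data do not test whether the cluster is specific to them.

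Several features moved with genotype, and their part in the results below was not tested. Alignments that were not unique, which htseq-count sets aside, were set against the sum of themselves, the counted reads and the reads on no feature. They made up 33.2% to 34.6% of this sum in *Ago2* fl/fl, 57.3% to 58.1% in *Ago2* ADH and 57.0% to 58.3% in *Ago2* null. In *Dicer* WT they made up 25.6% to 31.5% and in *Dicer* KO 44.4% to 49.5%. A read was allowed up to 100 alignments and can enter this tally more than once, so the values are no shares of reads. The lane numbers kept with the counts are the same within an *Ago2* genotype and differ between genotypes, so that lane and genotype cannot be told apart. *Ago2*, the targeted gene, had 24.1 to 25.6 CPM in *Ago2* fl/fl, 12.4 to 13.8 in *Ago2* ADH and 5.27 to 7.18 in *Ago2* null. *Dicer1* had 745 to 779 CPM in *Dicer* WT and 1669 to 1928 in the libraries labelled *Dicer* KO, a rise of 1.26 ± 0.06 (SE) on the log2 scale (edgeR adjusted p = 6.1e-12). The count covers the whole transcript, so it is no check of an exon deletion, and no direction below was read from it.

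Fold changes, standard errors (SE) and p-values are from edgeR's quasi-likelihood test, Benjamini-Hochberg adjusted over all transcripts tested. A gene is called higher or lower at an FDR of 1%. Normalized CPM were scaled by TMM over all 14 libraries. For the members, the log2 ratio of their means minus the fitted value had a median of −0.05 for *Ago2* ADH, −0.04 for *Ago2* null and −0.0055 for *Dicer* KO, since each comparison was scaled on its own libraries. Counts are relative to the library total, so a fall of a gene and a rise of the other RNAs cannot be told apart.

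RNA of all 10 genes was found in every library, with at least 2493 counted reads for a member. The counts measure RNA present and not transcription, and the study describes full-grown oocytes as inactive in transcription. Levels between genes were compared per kilobase (kb) of transcript. In *Ago2* fl/fl oocytes *Fbxw24* led with 1020.5 ± 42.7 CPM per kb (SD, n = 3), followed by *Fbxw15* with 621 ± 37.7, *Fbxw19* with 438 ± 23.8 and *Fbxw18* with 409 ± 23.9. Next came *Fbxw16* with 323 ± 8.91, *Fbxw28* with 223 ± 2.73 and *Fbxw22* with 167 ± 6.79. The lowest on this scale were *Fbxw13* with 149.6 ± 10.4, *Fbxw20* with 144 ± 7.66 and *Fbxw14* with 96.3 ± 0.793. The full transcript length was used, although alignments that were not unique had been set aside. In *Fbxw14* 32.4% and in *Fbxw28* 34.0% of 50-base stretches occurred in no other gene's transcript, against 84.6% to 94.2% in the other members. Levels of *Fbxw14* and *Fbxw28* can therefore be understated, and their places in this order are not established. The ranges of *Fbxw19* and *Fbxw18*, of *Fbxw22* and *Fbxw13*, and of *Fbxw13* and *Fbxw20* overlapped between the 3 libraries, and those of the other neighbours in this order did not.

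The order was the same in *Dicer* WT, from *Fbxw24* at 765 ± 41.0 CPM per kb to *Fbxw14* at 89.3 ± 5.94 (n = 3). There the ranges of *Fbxw13* and *Fbxw20* were the only neighbouring ones to overlap. In mutants the top 3 were again *Fbxw24*, *Fbxw15* and *Fbxw19*. Lower down the order differed. *Fbxw16* ranked 5 in both controls, 6 in *Ago2* ADH and *Ago2* null and 7 in *Dicer* KO, and *Fbxw20* ranked 9 in both controls and 10 in each mutant. These ranks, and the top 3, depend on the places of *Fbxw14* and *Fbxw28*, which are not established. The series were sequenced separately, so levels in *Ago2* and *Dicer* libraries are set side by side without a test.

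**Figure D2:**
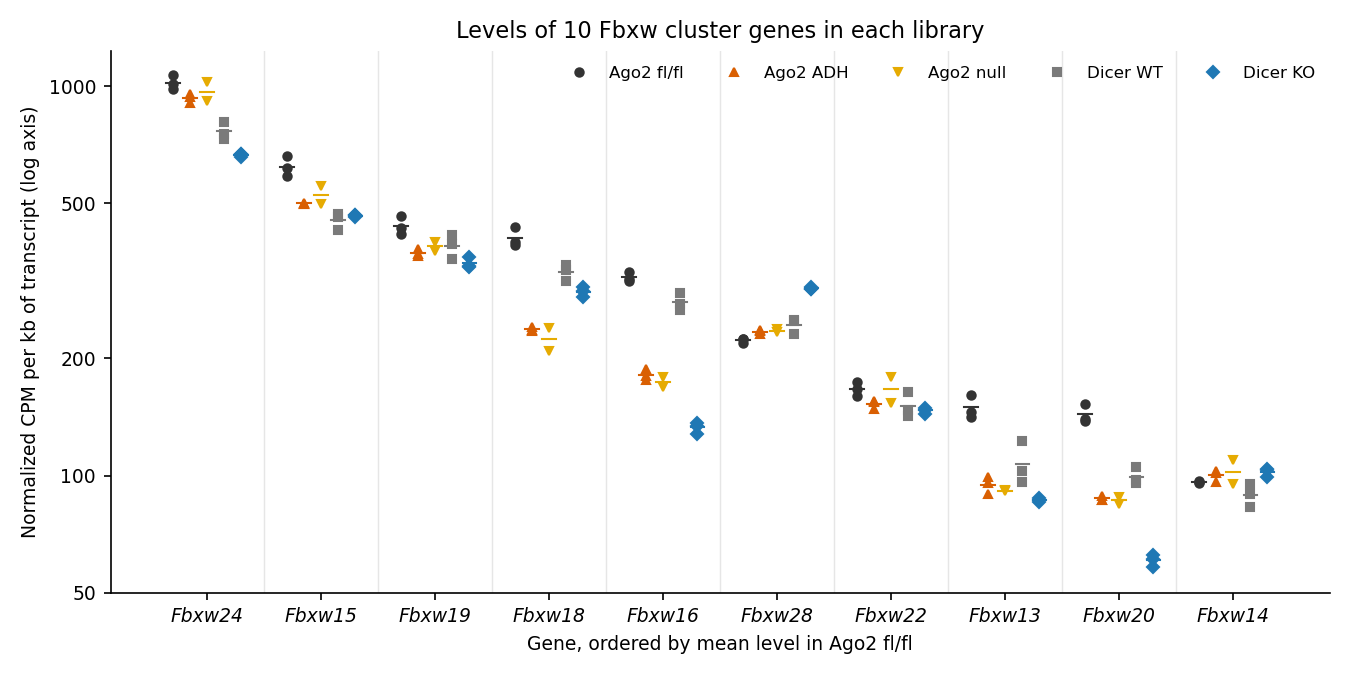
Normalized CPM per kb of transcript (log axis) of the 10 members, ordered by their mean in *Ago2* fl/fl; each symbol is a library, each short line a group mean, and colours mark the 5 groups. *Fbxw16*, *Fbxw20* and *Fbxw13* are lower in every mutant library than in every control of the same series, while *Fbxw28* is highest in *Dicer* KO.

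The question put to the *Ago2* ADH oocytes was what changes when AGO2 loses most of its RNA cleavage. These oocytes also differ from *Ago2* fl/fl in Cre and in the dose of *Ago2*, and the study found lower microRNA levels in them. In this comparison these differences and the lost cleavage cannot be told apart. In the cluster, 6 of 10 members were called lower and 0 higher, where 20.1% of the 18835 transcripts tested were called lower and 20.5% higher. The median log2 fold change of the members was −0.23, against 0.01 over all transcripts. The falls came in a stronger and a weaker range. *Fbxw16*, *Fbxw18*, *Fbxw20* and *Fbxw13* were 1.53-fold to 1.72-fold lower in the fit, while *Fbxw15* fell by 16.8% and *Fbxw19* fell by 12.0%.

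*Fbxw16* had 499, 473 and 479 CPM in *Ago2* fl/fl and 269, 264 and 282 in *Ago2* ADH. Every mutant library lay far below every control. The fit put it 1.72-fold lower, a log2 fold change of −0.78 ± 0.05 (SE, n = 3 and 3, adjusted p = 8.0e-11). *Fbxw18* had 662, 606 and 594 CPM in *Ago2* fl/fl and 359, 366 and 357 in *Ago2* ADH. Its groups were as clearly apart, with a 1.66-fold decrease and a log2 fold change of −0.74 ± 0.05 (adjusted p = 2.0e-10).

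*Fbxw20* had 230.1, 209 and 212 CPM in *Ago2* fl/fl and 131, 134 and 131 in *Ago2* ADH. The mutant libraries were nearly level with each other and below all controls. The decrease was 1.59-fold (log2 fold change −0.67 ± 0.05, adjusted p = 1.9e-09). *Fbxw13* had 239.8, 211 and 216 CPM in *Ago2* fl/fl and 142, 133 and 147 in *Ago2* ADH. The groups did not overlap, and the gene was 1.53-fold lower (log2 fold change −0.61 ± 0.06, adjusted p = 4.9e-08).

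*Fbxw15* had 989, 919 and 877 CPM in *Ago2* fl/fl and 748, 747 and 747 in *Ago2* ADH. The mutant libraries agreed closely and stood below the lowest control, for a log2 fold change of −0.27 ± 0.05 (adjusted p = 9.1e-05). *Fbxw19* had 688, 643 and 618 CPM in *Ago2* fl/fl and 542, 548 and 568 in *Ago2* ADH. The groups were separate but close, with a log2 fold change of −0.19 ± 0.05 (adjusted p = 0.0030). Its call was lost without *Ago2* fl/fl replicate 1 (−0.15, adjusted p = 0.013), without *Ago2* fl/fl replicate 2 (−0.19, adjusted p = 0.014) and without *Ago2* ADH replicate 1 (−0.18, adjusted p = 0.018).

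The other 4 members were not called in *Ago2* ADH. *Fbxw24*, the most abundant, had 1586, 1508 and 1461 CPM in *Ago2* fl/fl and 1419.9, 1345 and 1395 in *Ago2* ADH, with a log2 fold change of −0.08 ± 0.04 (adjusted p = 0.13). *Fbxw22* had 319, 307 and 294 CPM against 286, 272 and 283 (−0.08 ± 0.05, adjusted p = 0.17). For both the mutant libraries lay just below the controls. *Fbxw14* had 173, 172 and 170.5 CPM in *Ago2* fl/fl and 172, 181 and 184 in *Ago2* ADH, groups that overlapped (0.11 ± 0.05, adjusted p = 0.072). *Fbxw28* had 377, 368 and 376 CPM against 394, 388 and 398, slightly higher in each mutant library (0.12 ± 0.04, adjusted p = 0.027).

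The *Ago2* null oocytes were set against the same *Ago2* fl/fl libraries, so their values are not independent of those above and are given beside these values. Of the 10 members, 4 were called lower and 0 higher, where 19.1% of 19236 transcripts were called lower and 18.1% higher, and the members' median log2 fold change was −0.17 (0.00 over all). *Fbxw16* had 253 and 268 CPM in the 2 libraries, *Fbxw18* 318 and 364, *Fbxw20* 128 and 133, and *Fbxw13* 136 and 136. All of these values lay below every control. The log2 fold changes were −0.85 ± 0.06 for *Fbxw16* (adjusted p = 2.5e-09), −0.82 ± 0.07 for *Fbxw18* (3.2e-08), −0.69 ± 0.06 for *Fbxw20* (9.5e-08) and −0.67 ± 0.06 for *Fbxw13* (2.3e-07).

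The other 6 were not called in *Ago2* null. *Fbxw15* had 743 and 827 CPM, both below the controls, with a log2 fold change of −0.20 ± 0.06 (adjusted p = 0.012), and it depended on the library left out, at −0.12 without *Ago2* null replicate 1 (adjusted p = 0.15) and −0.29 without *Ago2* null replicate 2 (adjusted p = 0.0017). It was also called with DESeq2 (adjusted p = 0.0079), with no filter (0.0017) and with all 5 groups in 1 fit (0.0032). *Fbxw19* had 561 and 591 CPM (−0.13 ± 0.06, adjusted p = 0.063) and *Fbxw28* 392 and 398 (0.12 ± 0.05, adjusted p = 0.067), each just outside the range of the controls. *Fbxw14* had 169.9 and 196 CPM, on either side of the controls (0.13 ± 0.06, adjusted p = 0.11), and stood at 0.23 without *Ago2* null replicate 1 (adjusted p = 0.0075) and at 0.017 without *Ago2* null replicate 2 (adjusted p = 0.86). *Fbxw24* had 1359 and 1521 CPM (−0.04 ± 0.06, adjusted p = 0.62) and *Fbxw22* 282 and 329.6 (0.04 ± 0.07, adjusted p = 0.69). Their ranges overlapped those of the controls.

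Whether a cleavage-dead AGO2 differs from no AGO2 was addressed by setting *Ago2* ADH directly against *Ago2* null. None of the 10 members was called (0 of 10 by edgeR and by DESeq2, and 0 at an unadjusted p under 0.05), where 0.119% of 19306 transcripts were called and 1931 had an unadjusted p under 0.05. The log2 differences ranged from −0.13 ± 0.07 for *Fbxw22* to 0.07 ± 0.07 for *Fbxw18*, and the ranges of the libraries overlapped for every member. A p that misses the threshold does not show that the 2 genotypes are alike.

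**Figure D3:**
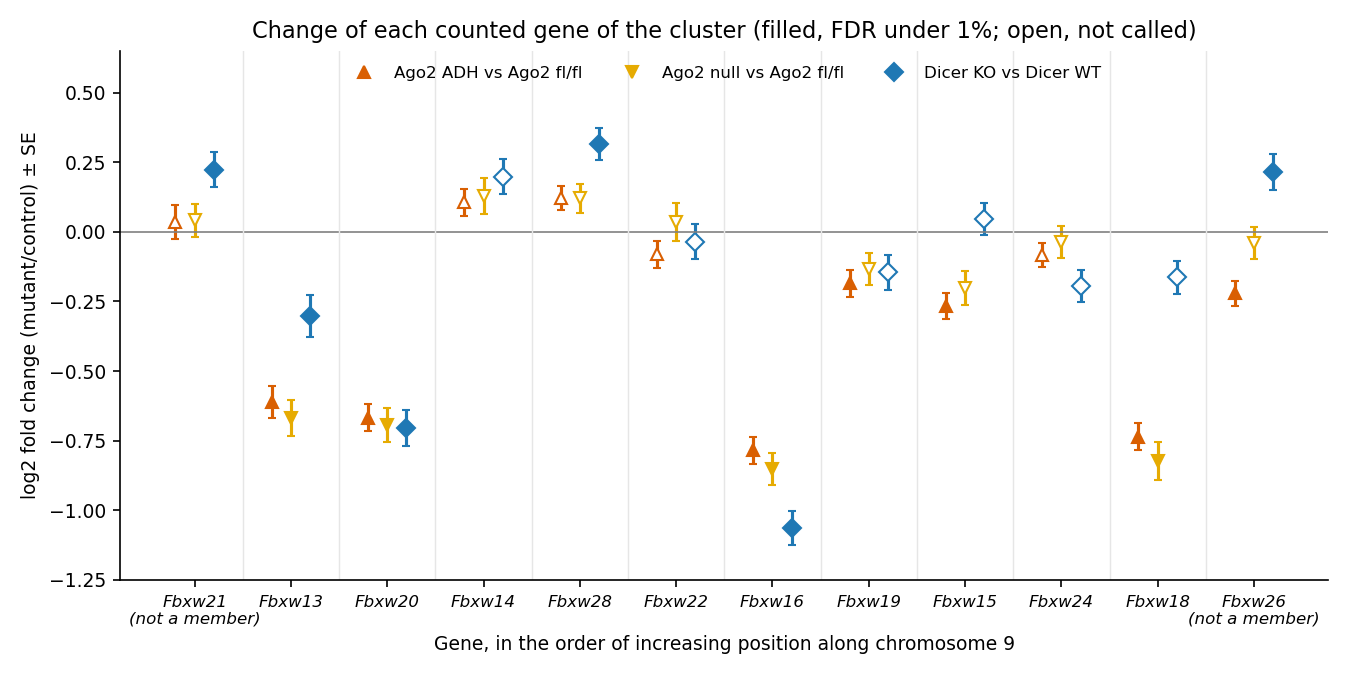
Log2 fold change with its SE for the 12 counted genes of the cluster, in the order of increasing position along chromosome 9, in 3 comparisons (colours and shapes); filled symbols are called at an FDR of 1%, open ones are not. *Fbxw20* and *Fbxw16* are low in all 3 comparisons, whereas *Fbxw18* is low in both *Ago2* mutants, at −0.74 and −0.82, and stands at −0.16 in *Dicer* KO.

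In the libraries labelled *Dicer* KO the members split. Of 10, 3 were called lower and 1 higher, where 17.8% of 18570 transcripts were called lower and 16.7% higher. The median log2 fold change was −0.15 for the members and −0.0044 over all. *Fbxw16* had 441, 397 and 413 CPM in *Dicer* WT and 191, 204 and 201 in *Dicer* KO. Every mutant library lay far below every control, a 2.09-fold decrease (log2 fold change −1.06 ± 0.06, n = 3 and 3, adjusted p = 5.1e-11). *Fbxw20* had 159, 145 and 147 CPM in *Dicer* WT and 92.3, 88.2 and 94.3 in *Dicer* KO. Its groups were well apart, with a 1.63-fold decrease (−0.71 ± 0.06, adjusted p = 4.3e-08).

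*Fbxw13* had 182, 143 and 152 CPM in *Dicer* WT and 127, 129.7 and 129 in *Dicer* KO. The mutant libraries were tight and below the controls, of which replicate 1 was the highest, and the log2 fold change was −0.30 ± 0.08 (adjusted p = 0.0032). The call was lost without *Dicer* WT replicate 1, where the value was −0.20 (adjusted p = 0.032), and without *Dicer* KO replicate 2 (−0.31, adjusted p = 0.014). *Fbxw28* had 419, 388 and 421 CPM in *Dicer* WT and 504, 511 and 507 in *Dicer* KO. It was higher in each mutant library than in any control, 1.24-fold (0.32 ± 0.06, adjusted p = 1.8e-04), and was called higher at the settings used throughout, as no other member was.

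*Fbxw18*, which had fallen in both *Ago2* mutants, had 526, 480.1 and 513 CPM in *Dicer* WT and 437, 463 and 452 in *Dicer* KO. The groups were separate by a small gap, and the decrease was not called (−0.16 ± 0.06, adjusted p = 0.029). *Fbxw15* had 702, 638 and 690.0 CPM against 699, 699 and 689, overlapping groups (0.05 ± 0.06, adjusted p = 0.55). *Fbxw24* had 1206, 1086 and 1125 CPM against 979.8, 997 and 996. It lay lower in each mutant library and missed the threshold narrowly (−0.19 ± 0.06, adjusted p = 0.010), and it was called without *Dicer* WT replicate 2 (−0.24, adjusted p = 0.0055). It was also called with DESeq2 (adjusted p = 0.0027), with no filter (0.0032), with 1 transcript per gene (0.0092) and with all 5 groups in 1 fit (0.0047).

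*Fbxw14* had 169.9, 149 and 160.0 CPM in *Dicer* WT and 184, 177 and 186 in *Dicer* KO, higher in each mutant library but not called (0.20 ± 0.06, adjusted p = 0.016). It was called higher with DESeq2 (adjusted p = 0.0069) and with all 5 groups in 1 fit (adjusted p = 0.0086). *Fbxw19* had 616, 533 and 584 CPM against 508, 512 and 541 (−0.15 ± 0.06, adjusted p = 0.066). *Fbxw22* had 301, 262 and 270.1 CPM against 274, 265 and 270.1 (−0.04 ± 0.06, adjusted p = 0.67). In these last 2 genes the groups overlapped.

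The members called lower in both *Ago2* mutants, *Fbxw13*, *Fbxw16*, *Fbxw18* and *Fbxw20*, were summed. This group was formed after the values were seen and was therefore not tested. A lower share in the *Ago2* mutants was set by that choice. The group held 28.1 ± 0.376% of the members' summed CPM in *Ago2* fl/fl (SD, n = 3) and 27.6 ± 0.159% in *Dicer* WT. The share was 20.4 ± 0.149% in *Ago2* ADH, 19.1 ± 0.233% in *Ago2* null (n = 2) and 21.5 ± 0.338% in *Dicer* KO. The summed CPM of all 10 was 5297 to 5762 in *Ago2* fl/fl, 4378 to 4491 in *Ago2* ADH and 4343 to 4764 in *Ago2* null, and 4221 to 4722 in *Dicer* WT against 3997 to 4065 in *Dicer* KO. The sum was lower in each mutant library than in any control of its series.

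The *Ago2* ADH effect and the *Dicer* KO effect share no library, and their difference was tested as an interaction. Of the 10 members, 2 were called different, where 3.55% of 19500 transcripts were. *Fbxw18* fell more in *Ago2* ADH than in *Dicer* KO, a difference of −0.62 ± 0.07 on the log2 scale (adjusted p = 7.6e-06), and the call held under every alternative run. *Fbxw15* differed by −0.36 ± 0.07 (adjusted p = 0.0026), with a fall in *Ago2* ADH and overlapping groups in *Dicer* KO. Its call was lost without *Dicer* WT replicate 2 (−0.32, adjusted p = 0.014) and with the replicate number as a block (adjusted p = 0.012).

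The differences of *Fbxw13*, *Fbxw28* and *Fbxw16* were not called. *Fbxw13* stood at −0.36 ± 0.10 (adjusted p = 0.030) and was called without *Dicer* WT replicate 1 (−0.47, adjusted p = 0.0024). *Fbxw28* stood at −0.25 ± 0.07 (adjusted p = 0.026), and *Fbxw16*, the only one of the 3 with the larger fall in *Dicer* KO, at 0.23 ± 0.07 (adjusted p = 0.062). *Fbxw20*, at −0.013 ± 0.080, had nearly equal effects in the 2 mutants. Lanes and sequencing runs differ between the series, and this difference and the genotypes cannot be told apart in the interaction.

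**Figure D4:**
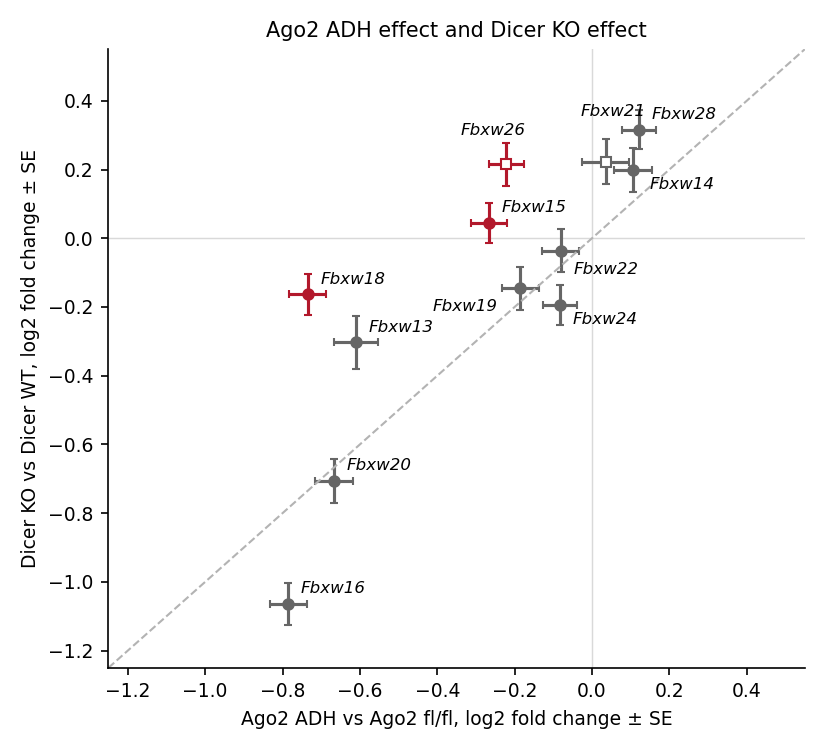
Log2 fold change with its SE in *Ago2* ADH (x axis) and in *Dicer* KO (y axis) for the 10 members (circles) and the other 2 counted genes of the cluster (open squares); the dashed line marks equal effects. Genes in red, *Fbxw18*, *Fbxw15* and *Fbxw26*, were called different between the 2 effects, and all 3 lie above the line.

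Neighbours in the array did not always move alike. *Fbxw20* and *Fbxw14* are neighbours, as are *Fbxw24* and *Fbxw18* among the members, and the log2 fold changes in *Ago2* ADH were −0.67 and 0.11 in the first pair and −0.08 and −0.74 in the second. Of the counted genes at the ends of the array, which are no members, values are given for comparison. *Fbxw21* had a log2 fold change of 0.04 ± 0.06 in *Ago2* ADH (adjusted p = 0.65) and 0.22 ± 0.06 in *Dicer* KO (adjusted p = 0.0079). *Fbxw26* fell by 0.22 ± 0.05 in *Ago2* ADH (adjusted p = 5.2e-04) and rose by 0.21 ± 0.06 in *Dicer* KO (adjusted p = 0.0099), a difference of −0.49 ± 0.08 (adjusted p = 3.0e-04). In *Ago2* null neither gene was called, with *Fbxw21* at 0.04 ± 0.06 and *Fbxw26* at −0.04 ± 0.06 (adjusted p = 0.59 for both). Set directly against *Ago2* null, *Fbxw26* in *Ago2* ADH stood at −0.20 ± 0.06, with separate ranges but no call (adjusted p = 0.26). The call of *Fbxw21* in *Dicer* KO was lost without *Dicer* WT replicate 2 (0.15, adjusted p = 0.067), *Dicer* KO replicate 2 (0.23, adjusted p = 0.029) or *Dicer* KO replicate 3 (0.19, adjusted p = 0.025). That of *Fbxw26* was lost without any 1 of the 3 *Dicer* WT libraries or without *Dicer* KO replicate 2 or 3, with values from 0.17 to 0.24 (adjusted p from 0.016 to 0.072).

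How well reads can be assigned bears on each value. Every stretch of 36 or 50 bases, the read lengths named in the study's alignment settings, was looked up in all other genes' transcripts. Words were looked up singly, so what a pair of reads can assign was not measured. For *Fbxw14* 67.6% and for *Fbxw28* 66.0% of the 50-base words were found elsewhere, mostly in each other, since the 2 transcripts are 99.2% identical over aligned bases. Their counts are therefore uncertain, and the rise of *Fbxw28* in *Dicer* KO cannot be assigned to it alone. For 36-base words the shares were 77.4% and 75.5%. The other 8 members shared 5.77% to 15.4% of their 50-base words and 11.7% to 31.5% of their 36-base words. *Fbxw16* shared the most of these at both lengths, with *Fbxw23* as its closest relative. Unstranded counting adds a limit. Exons of the antisense genes *Gm42494* and *Gm42493* cover 210 bases of the *Fbxw16* transcript and those of *Gm42756* cover 168 bases of *Fbxw15*, and reads of the 2 strands cannot be told apart. The second transcript of *Fbxw28*, NM_001177420, gave 0.27 ± 0.06 in *Dicer* KO (adjusted p = 0.0012). It was not called in *Ago2* ADH (0.04 ± 0.05, adjusted p = 0.50) or in *Ago2* null (0.02 ± 0.06, adjusted p = 0.83).

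**Figure D5:**
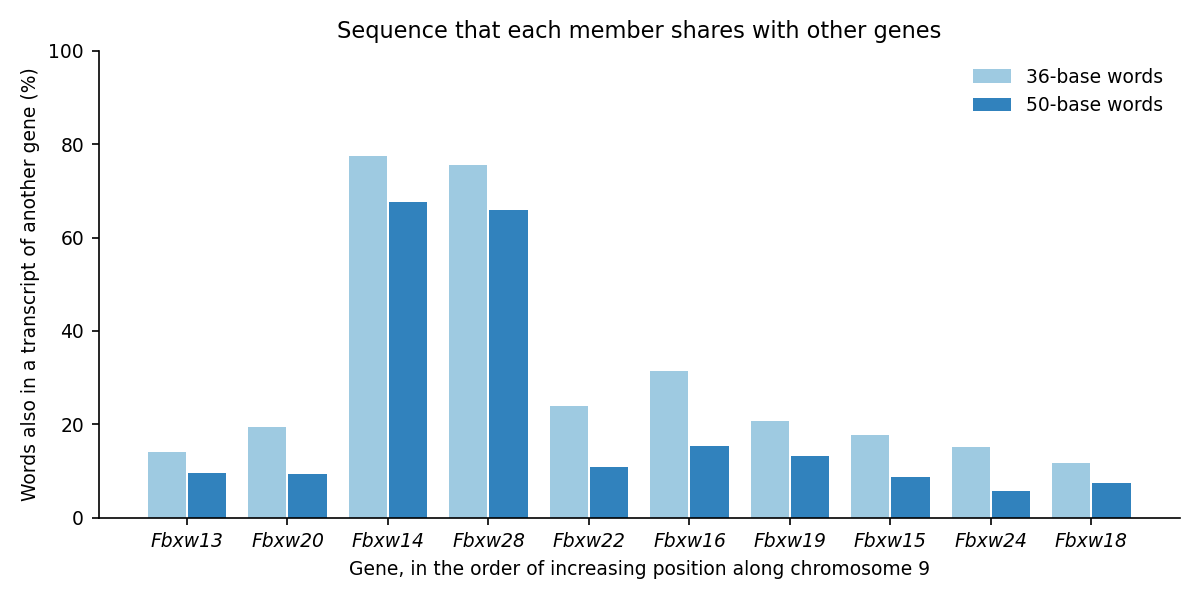
Share of 36-base and 50-base words of each member's transcript that also occur in a transcript of another gene (bars, percent), in the order of position along chromosome 9. *Fbxw14* and *Fbxw28* stand at 67.6% and 66.0% for 50-base words, and the other members at 15.4% or less; for 36-base words *Fbxw16* stands at 31.5% and *Fbxw22* at 23.9%.

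The machinery that F-box proteins join was read from a list of 23 SCF subunits and regulators, of which 22 were counted and tested. In *Ago2* ADH 4 were higher and 4 lower, in *Ago2* null 5 and 4, and in *Dicer* KO 1 and 4, with median log2 fold changes of 0.04, 0.07 and 0.05. Over all transcripts tested, 20.5% were called higher and 20.1% lower in *Ago2* ADH, 18.1% and 19.1% in *Ago2* null and 16.7% and 17.8% in *Dicer* KO, so the counts of this list in the *Ago2* mutants are near the background. *Cul1*, the scaffold of the ligase, had 957 to 1011 CPM in *Ago2* fl/fl and 676 to 764 in *Ago2* ADH, and fell by 0.43 ± 0.05 in *Ago2* ADH, by 0.45 ± 0.05 in *Ago2* null and by 0.31 ± 0.06 in *Dicer* KO on the log2 scale (adjusted p = 1.0e-06, 2.7e-06 and 1.9e-04). *Uba3*, a subunit of the enzyme that activates NEDD8, fell by 0.47 ± 0.07, 0.44 ± 0.08 and 0.55 ± 0.07 (adjusted p = 2.5e-05, 2.5e-04 and 2.1e-06).

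*Ube2r2*, an E2 enzyme related to CDC34, moved the other way. It had 15.9 to 18.2 CPM in *Ago2* fl/fl, 26.1 to 30.8 in *Ago2* ADH and 28.6 to 28.9 in *Ago2* null, and 8.96 to 9.90 in *Dicer* WT against 66.4 to 72.9 in *Dicer* KO. No mutant library overlapped its controls. The log2 fold changes were 0.80 ± 0.09, 0.81 ± 0.09 and 2.89 ± 0.09 (adjusted p = 5.2e-07, 1.8e-06 and 7.4e-15).

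All 10 listed F-box/WD genes outside the cluster were tested, and in *Ago2* ADH 1 was higher and 2 lower, in *Ago2* null 2 and 2, and in *Dicer* KO 0 and 2. With 10 genes, these counts are near or below the same shares over all transcripts. *Fbxw4* fell by 0.62 ± 0.07, 0.60 ± 0.07 and 0.75 ± 0.09 on the log2 scale in these comparisons (adjusted p = 9.9e-07, 1.6e-06 and 2.9e-06). *Fbxw10*, with 4.38 to 5.01 CPM in *Ago2* fl/fl, fell by 0.63 ± 0.17, 1.39 ± 0.22 and 2.29 ± 0.43 (adjusted p = 0.0043, 7.1e-05 and 2.3e-04). It had only 1.14 to 2.19 CPM in *Dicer* WT and 0.248 to 0.369 in *Dicer* KO, so its largest fall was measured at a low level. Of 23 other genes inside the cluster or within 500 kb of it, 19 were tested in *Ago2* ADH, with 4 higher and 0 lower. The counts were 5 and 0 of 19 in *Ago2* null and 2 and 0 of 17 in *Dicer* KO. Over all transcripts 20.5%, 18.1% and 16.7% were called higher in these comparisons. *Prkar2a*, a regulatory subunit of protein kinase A, rose by 0.81 ± 0.06, 0.77 ± 0.07 and 0.68 ± 0.08 (adjusted p = 3.9e-09, 2.6e-07 and 2.5e-06).

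Across the 14 libraries, 3 genes outside the family followed the members' summed CPM most closely, after each series was centred on its controls. They were *Snx16*, a sorting nexin (Pearson's r = 0.967), *Paip1*, which binds poly(A)-binding protein (0.965), and *Pramel27* (0.963), out of 11497 genes. Among the members r with this sum ran from −0.25 for *Fbxw28* and −0.16 for *Fbxw14* to 0.97 for *Fbxw13*. The libraries fall into groups, so these values describe group differences too and carry no p. The sum holds each member's own value.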

How the data were processed

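RNA-seq counts of 14 libraries of 20 oocytes, in 5 groups taken from the sample labels, were analysed. The deposited values are raw read counts per RefSeq transcript. To make them, the authors amplified cDNA (Ovation), sequenced it without molecular identifiers, aligned reads to mm10 and refGene with TopHat2 (2.0.7 in the submitters' processing notes; up to 100 hits allowed for a read) and tallied them with HTSeq 0.6.1, intersection-strict and unstranded. Amplified reads are not independent molecules. The methods name paired-end sequencing of 50 bases. They also give alignment settings for reads of 36 and 50 bases without saying which libraries had which. Library totals are given in the results. Of the 26495 transcripts, 301 had no symbol.

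Counts were fitted with edgeR 4.0.16 in R 4.3.3 (TMM, filterByExpr with a minimum count of 10 and total of 15, quasi-likelihood test, Benjamini-Hochberg adjustment over all transcripts, FDR 1%), each comparison on its own libraries. The SE is the log2 fold change divided by the square root of F. All 10 members passed the filter in every comparison. The scripts were tested on simulated data. Promoters, exons and transcripts came from RefSeq and GENCODE M21. Other steps used Python 3.11.15, Biopython 1.88 and pandas 2.3.3.

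The members and lists were chosen with earlier results of these data known. The genes named are the members, the targeted genes, the other counted genes of the cluster, up to 3 genes of each list called in all 3 comparisons of a mutant with its control, and the 3 genes most alike. Alternatives were DESeq2 1.42.0, RLE, no filter, a minimum of 10 counts in all libraries, 1 transcript per gene, all 5 groups in 1 fit, an FDR of 5%, each replicate left out and a replicate block. For levels they were CPM without TMM and summed transcripts. The labels do not tie replicates to litters, and the methods describe 3 separate collections, so p-values measure the spread between these pools.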

Additional observations from a re-analysis of the deposited data

Results flagged for a closer look

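The *Ago2* ADH and *Dicer* KO effects differed by a test of the difference itself in 3 genes of the cluster. *Fbxw18* differed by −0.62 on the log2 scale, with decreases in both mutants of which that in *Dicer* KO was not called. *Fbxw15* differed by −0.36, lower in all 3 *Ago2* ADH libraries and overlapping its controls in *Dicer* KO. *Fbxw26*, which is counted but is no member, differed by −0.49, lower in *Ago2* ADH and higher in *Dicer* KO. In *Ago2* null it was not called, at −0.04. No group held more than 3 libraries, so no test was made for a single library standing apart. The fits were rerun with each replicate left out, and calls that changed are given with their genes.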

How the results depend on the processing

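The count of members called was 6 in *Ago2* ADH (5 to 6 with a replicate left out), 4 in *Ago2* null (4 to 5), 4 in *Dicer* KO (3 to 5), 0 for *Ago2* ADH against *Ago2* null (0 to 0) and 2 for the difference of effects (1 to 3, with 1 without *Dicer* WT replicate 2). At an FDR of 5% it was 7 in *Ago2* ADH, 5 in *Ago2* null, 7 in *Dicer* KO and 4 for the difference of effects. The gene gained in *Ago2* ADH was *Fbxw28*, which was higher (0.12, adjusted p = 0.027). No count over all transcripts was taken at 5%. With DESeq2 the count of members was 6, 5, 6, 0 and 2 in the same order, and with the replicate block 6, 4, 4, 0 and 1. Calls over all transcripts moved too. They were 7663, 7157, 6412, 23 and 692 in the main fits and 8070, 7449, 6775, 81 and 1104 with DESeq2. With the block they were 7679, 6041, 5678, 142 and 537. The same transcripts were tested in these 3 settings. Same-numbered libraries were not treated as paired in the main fits, and the correlations of their deviations ran from −0.19 to 0.09. With so few libraries in a group, these values cannot show whether the collections were paired. Of 828 values for 60 results on single genes, 19 lost a call, 13 gained one and 22 changed sign, none of the last being called. The causes were not tested.

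Sign changes were in values near 0. With all 5 groups in 1 fit *Fbxw21* stood at −0.013 in *Ago2* ADH, and under the replicate block at −0.012 in *Ago2* null. For the difference of effects *Fbxw20* stood at 0.017 with DESeq2 and 0.017 with RLE. With a replicate left out, values ran from −0.057 to 0.032 for *Fbxw20* there, and in *Ago2* ADH from −0.033 to 0.10 for *Fbxw21*. In *Ago2* null they ran from −0.087 to 0.15 for *Fbxw22*, −0.13 to 0.049 for *Fbxw24*, −0.0072 to 0.087 for *Fbxw21* and −0.098 to 0.019 for *Fbxw26*. In *Dicer* KO they ran from −0.0039 to 0.070 for *Fbxw15* and −0.086 to 0.024 for *Fbxw22*. For *Ago2* ADH against *Ago2* null they ran from −0.14 to 0.068 for *Fbxw14*, −0.023 to 0.17 for *Fbxw18*, −0.015 to 0.037 for *Fbxw20*, −0.14 to 0.022 for *Fbxw24*, −0.032 to 0.00038 for *Fbxw28* and −0.089 to 0.042 for *Fbxw21*. Where *Ago2* null was left with 1 library, that library was assumed to vary like the others.

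The lowest count of a member was 2493. Whether more depth would change a call was not tested. The 2 *Ago2* null libraries, the lanes that cannot be told apart from genotype and the near-identity of *Fbxw14* and *Fbxw28* limit the values.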
